A study of Mus musculus with 2 samples.

Results

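Protein tyrosine phosphatases of the receptor and non-receptor families were followed across the cells of 1 single-cell library of mouse spleen. The genes were all those whose symbol starts with Ptpn or Ptpr followed by a digit or letter, without pseudogenes and antisense transcripts marked as such, and without Ptprcap, which encodes a partner protein. They numbered 38 of the 32285 genes counted, 17 named Ptpn and 21 named Ptpr. Of these, 37 encode proteins and 1, Ptprtos, is annotated as antisense to Ptprt. The rule used gene names and no measured value, though it was set with earlier results of these data known. The library comes from wild-type mice, whose NK cells were enriched by removing T, B, dendritic, granulocyte, macrophage and erythroid cells on a magnetic column. T-like, B-like, dendritic-like and erythroid-like cells below are thus of types this removal was aimed at. The labels name no treatment, strain or age, and what is compared here is 1 class of cells with another of the same library. Of the 2 samples the labels list, both wild-type splenic NK cells, 1 was analysed here.

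A tyrosine phosphatase removes phosphate from tyrosine and so opposes the kinases that relay signals from surface receptors. In lymphocytes the family acts in both directions: CD45, the product of Ptprc, removes an inhibitory phosphate from Src-family kinases, while SHP-1, the product of Ptpn6, is called in by inhibitory receptors and shuts signals off. NK cells depend on such inhibitory receptors, many of the Ly49 proteins of the mouse among them, to spare healthy cells. The receptor-type members span the membrane, and many carry 2 phosphatase domains, while the non-receptor members sit in the cytoplasm or on internal membranes.

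All 37 coding members share a short signature around the catalytic cysteine, which the choice by name did not use. It was searched as a histidine codon followed by a cysteine codon, glycine codons at the third and the fifth codon after that cysteine, and an arginine codon at the sixth. Each coding sequence held at least 1 match, and 9 receptor-type members held 2 (Ptpra, Ptprd, Ptpre, Ptprf, Ptprk, Ptprm, Ptprs, Ptprt and Ptpru). The stretches of 6 members whose levels are plotted by tag are printed here, since their values carry most of what follows. They come from the GENCODE release M21 transcripts (GRCm38), with the cysteine codon in capitals.
Ptprc: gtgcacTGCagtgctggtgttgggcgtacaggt
Ptpn22: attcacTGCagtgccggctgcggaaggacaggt
Ptpn12: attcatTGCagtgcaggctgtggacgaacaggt
Ptpn4: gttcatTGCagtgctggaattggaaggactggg
Ptpn6: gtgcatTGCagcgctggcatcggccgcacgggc
Ptprj: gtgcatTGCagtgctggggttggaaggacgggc
In these coordinates Ptprc spans chromosome 1 from 138062861 to 138175708 and Ptpn4 from 119652467 to 119837613, Ptpn22 spans chromosome 3 from 103859795 to 103912247, Ptpn12 chromosome 5 from 20986645 to 21055911, Ptpn6 chromosome 6 from 124720707 to 124738714 and Ptprj chromosome 2 from 90429754 to 90580647. All but Ptpn22 lie on the minus strand. In Ptprc, where a second phosphatase domain is known, the pattern matched once, at cysteine codon 842 of 1293. The cysteine codon was number 227 of 802 in Ptpn22, 231 of 775 in Ptpn12, 852 of 926 in Ptpn4, 455 of 597 in Ptpn6 and 1252 of 1350 in Ptprj. The signature thus lies in the first part of the coding sequence in Ptpn22 and Ptpn12, both of the PEST group, and near its end in Ptpn4, whose protein carries its FERM and PDZ domains ahead of the phosphatase, and in Ptprj, whose long extracellular part comes first.

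A promoter of Ptprj and that of Ptpn6 are shown from the RefSeq table (GRCm38.p6), each 250 bases before and 50 after the annotated start. The levels of both genes were high in B-like and dendritic-like cells. Capitals mark matches on either strand to GAGGAAG, a core bound by ETS factors of the PU.1 type.
Ptprj, chr2:90580546-90580845, minus strand: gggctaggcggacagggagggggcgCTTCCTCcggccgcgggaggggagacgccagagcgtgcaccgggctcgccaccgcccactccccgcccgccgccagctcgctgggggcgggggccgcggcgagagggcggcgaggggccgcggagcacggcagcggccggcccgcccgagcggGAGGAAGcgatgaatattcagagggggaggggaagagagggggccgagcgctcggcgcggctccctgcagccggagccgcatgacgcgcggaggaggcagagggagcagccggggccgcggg
Ptpn6, chr6:124738660-124738959, minus strand: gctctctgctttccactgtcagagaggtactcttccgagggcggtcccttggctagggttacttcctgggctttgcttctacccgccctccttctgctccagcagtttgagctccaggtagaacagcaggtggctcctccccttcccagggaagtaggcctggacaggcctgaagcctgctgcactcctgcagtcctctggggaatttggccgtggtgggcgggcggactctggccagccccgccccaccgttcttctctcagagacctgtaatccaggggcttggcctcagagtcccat
The Ptprj window shown held 2 matches, and another promoter listed for Ptprj, at chr2:90479125-90479424, held 1. Of all 32851 RefSeq promoters, 13.6% held a match, as did 10 of the 47 promoters listed for 33 members (21.3%). Among them were promoters of Ptpn14 and Ptpn23, called higher in B-like than in NK-like cells, and of Ptpn22, Ptpn7 and Ptpre, called lower there. Whether a match goes with a level was not tested. A second motif, TGTGGTT, bound by RUNX factors, was in 5.27% of all promoters and in 2 of the 47. No match lay in the Ptpn6 window shown, which says only that these letters are not in it. A match is a stretch of letters, and no binding was measured.

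The matrix held 16384 barcodes. Of the 15742 with 500 to 6000 genes and at most 10% mitochondrial counts, 11696 carried exactly 1 of 3 lipid tags, which mark cells pooled before the run. These were 3590, 4213 and 3893 cells in tags 1, 2 and 3, with 18485480, 23091461 and 22465648 counts of unique molecular identifiers (UMIs) and medians of 4026.5, 4433 and 4125 UMIs per cell. The labels do not tie a tag to a mouse. With the tag as a block, p-values set a class difference against how it varies across the tags of 1 library, which may be technical. The test estimates this variation with information shared over all genes, so a very small p-value does not rest on 3 tags of 1 gene alone. The labels name no batch, and all cells analysed come from 1 library. Doublets of cells with the same tag, expected at about 1795 of the analysed cells (15.3%), remained in the data.

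Classes were named from clusters formed without the phosphatase genes. NK-like cells numbered 8546, and all 10 NK markers were seen in them. The other classes described here were 505 ILC1-like, 155 T-like, 713 B-like, 39 plasma-like, 556 conventional dendritic-like, 148 erythroid-like and 145 stromal-like cells. Median UMIs per cell were 5146 in ILC1-like, 6049 in T-like, 3908 in B-like, 16004 in plasma-like, 8091.5 in dendritic-like, 32502 in erythroid-like, 7880 in stromal-like and 3823.5 in NK-like cells. In the ILC1-like cluster the NK and the ILC1 marker scores were equal (0.672), and its leading genes included Il7r and the T cell receptor gene Tcrg-C4. Of 10 T cell markers, Cd3e, Cd8a and Cd6 were at 0 UMIs in it. The other 7 were seen, among them Cd3d (53 UMIs) and Cd3g (43 UMIs). Summed, the T cell markers stood at 162% of their NK-like level there. Transcripts of NK cells appeared in every other class: the 10 NK markers stood at 8.47 to 119% of their NK-like level in ILC1-like cells, 7.06 to 24% in T-like, 9.08 to 11.9% in B-like, 5.08 to 11.6% in dendritic-like, 1 to 3.86% in erythroid-like, 3.1 to 7.31% in plasma-like and 5.13 to 9.52% in stromal-like cells. A phosphatase gene at or below such a share of its NK-like level is read as background, except in ILC1-like cells, where the NK markers range too widely to set such a level. Fewer transcripts of a gene per cell and fewer cells that express it cannot be told apart in these sums.

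A level is stated in CPM, the UMIs a gene has for each 1000000 gene UMIs counted in those cells, in the order of tags 1, 2 and 3 where 3 values stand together; square brackets beside a pooled level hold its exact 95% Poisson interval, which covers counting error only. Levels are not scaled to gene length, so the order of genes is one of counted molecules. CPM use the plain total of UMIs, whereas log2 folds and fold sizes are fitted after TMM scaling of the totals. A fold can thus differ from the ratio of the CPM printed beside it. Of the 38 genes, 14 had at least 1000 UMIs in the analysed cells, 13 had at least 100 but fewer than 1000, 9 had 3 to 99, and 2, Ptpn20 and Ptprtos, had 0, at a floor of 3 counts that equals 0.0468 CPM. Together they gave 274275 UMIs, or 0.428% of the total, and Ptprc alone gave 48.6% of these. Their summed level was 4265 CPM in ILC1-like, 3239 in T-like, 3002 in B-like, 2528 in dendritic-like, 2238 in stromal-like, 762 in plasma-like and 718 in erythroid-like cells, against 5280 CPM in NK-like cells (5392, 5276 and 5162 in the 3 tags). Each NK-like tag lay above every tag of these classes. Of the classes outside the comparisons, monocyte-like and neutrophil-like cells were near NK-like cells. Monocyte-like cells stood at 5238 CPM (5174, 4755 and 5409) and neutrophil-like cells at 5128 CPM (4032, 5411 and 5113).

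**Figure D1:**
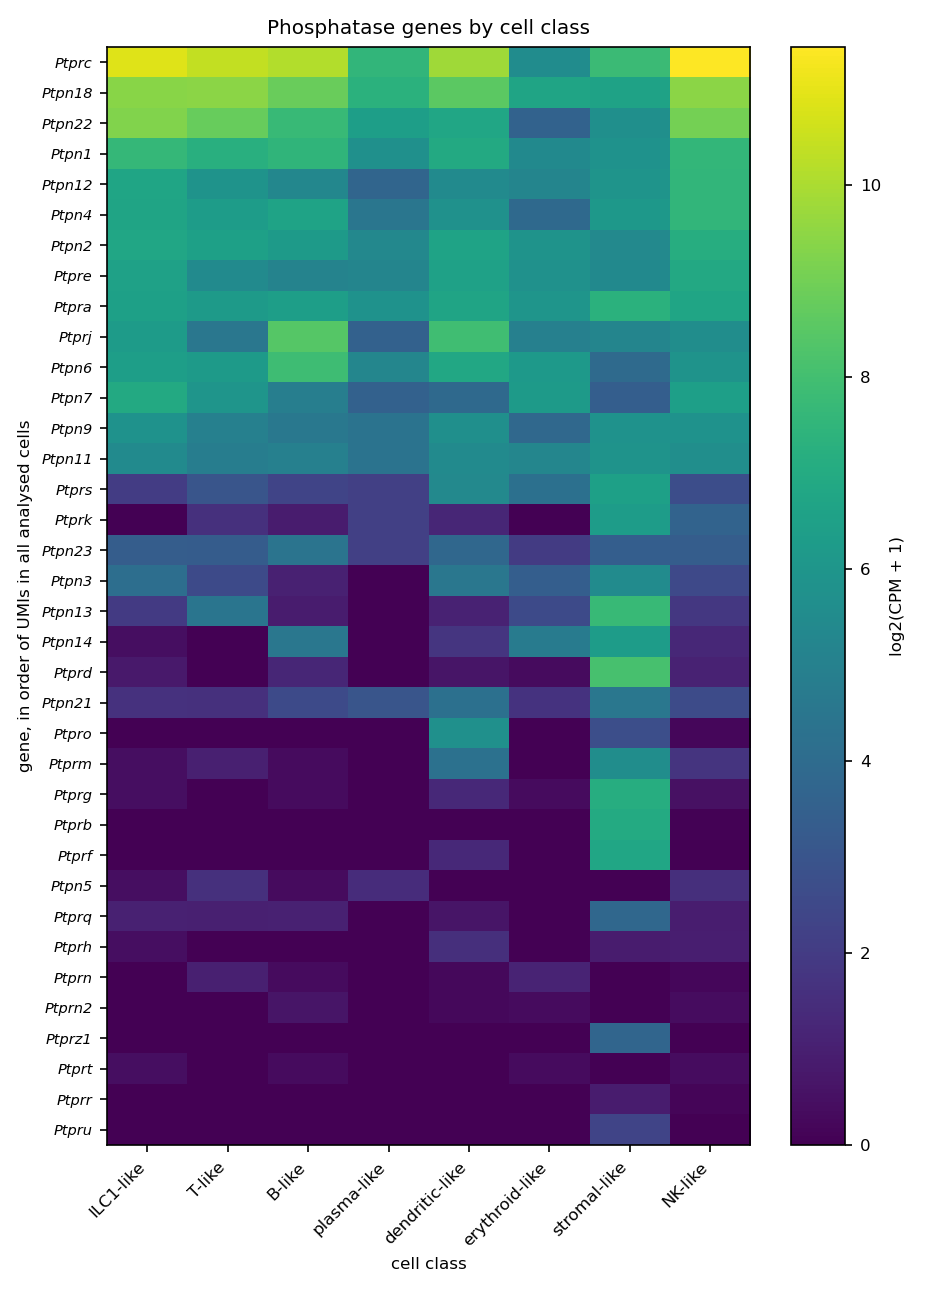
Level of the 36 phosphatase genes with at least 3 UMIs (rows, in order of their UMIs in all analysed cells) in 8 cell classes (columns), as log2(CPM + 1) of the UMIs pooled over the 3 tags. Ptprc is the brightest row in the lymphocyte classes, Ptprj and Ptpn6 are bright in B-like and dendritic-like cells, and the lower rows, Ptprd and Ptprg among them, are bright in stromal-like cells.

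In NK-like cells the leading genes were the receptor-type Ptprc and the cytoplasmic Ptpn18 and Ptpn22. Ptprc stood at 2814, 2800 and 2716 CPM, Ptpn18, a PEST-group phosphatase, at 699, 716 and 703 CPM, and Ptpn22, which acts with the kinase Csk to damp antigen receptor signals, at 616, 474 and 497 CPM. A second tier followed. It held Ptpn1 (PTP1B, which acts on insulin and cytokine receptor kinases) at 196, 185 and 196 CPM, Ptpn12 (PTP-PEST, which acts on adhesion proteins) at 182, 189 and 175 CPM, and Ptpn4 (with FERM and PDZ domains) at 169, 195 and 179 CPM. Tags differed little within these genes, apart from Ptpn22, which was highest in tag 1. In the same tier were Ptpn2 (TC-PTP, which acts on Jak kinases) at 140, 141 and 135 CPM, Ptpre at 117, 123 and 117 CPM and Ptpra at 103, 108 and 105 CPM. Ptpre and Ptpra encode receptor-type phosphatases with short outer parts that act on Src-family kinases.

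Below these came Ptpn7, which acts on MAP kinases, at 87 CPM, Ptpn6 at 56.9, Ptpn9, a phosphatase of vesicle membranes, at 56.8, Ptpn11, which encodes SHP-2, at 49.1, and Ptprj, which encodes the receptor CD148, at 47.4 CPM. The pair that inhibitory receptors recruit, Ptpn6 and Ptpn11, thus lay close together in NK-like cells, at 57 ± 5.7 and 49.3 ± 1.76 CPM (SD, n = 3 tags). The rest were rare there: Ptprk at 11.5, Ptpn23 at 9.45, Ptprs at 5.48, Ptpn21 at 5.22, Ptpn3 at 4.73, Ptpn13 at 2.65, Ptprm at 2.29, Ptpn5 at 1.92, Ptpn14 at 1.45 and Ptprd at 1.14 CPM. The remaining genes with a UMI in NK-like cells (Ptprh, Ptprq, Ptprg, Ptprn2, Ptprt, Ptprn, Ptpro, Ptprr, Ptprb, Ptprf, Ptpru and Ptprz1) each stayed under 1 CPM.

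NK-like cells were not uniform. Of the larger clusters, the one led by Gzmb, Ly6c2 and Klrg1 (cluster 1, 3975 cells) stood at 213 CPM of Ptpn4, 141 of Ptpre and 27.2 of Ptprj. The one led by Ccr2 and Emb (cluster 2, 3673 cells) stood at 163, 108 and 51.5 CPM of the same genes. The cycling cluster (145 cells) had 1495 CPM of Ptprc, 68.3 of Ptpn4 and 53.5 of Ptpre, all below both. A cluster of shallow cells (753 cells, median 1417 UMIs) had higher levels of several members, such as 4832 CPM of Ptprc, 1206 of Ptpn22, 344 of Ptpn4 and 176 of Ptprj, and less Ptpn6 at 27.3 CPM. These cluster values are a description; whether intronic reads were counted is not given in the sources used here.

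ILC1-like cells, tissue-type innate lymphocytes close to NK cells, had less Ptprc, Ptpn12 and Ptpn4 than NK-like cells and more Ptprj, Ptpn6, Ptpn7 and Ptpn3. Of 21 members tested, 5 were higher and 6 lower by edgeR's quasi-likelihood test (adjusted p under 0.05), where 11.6% of all 11495 genes tested were higher and 10.6% lower. Ptprk and Ptprm passed the filter on low counts through NK-like cells only. Of the 19 others, 5 were higher and 5 lower, and both shares were above those of all genes. Here and below, the shares of all genes were not limited to genes that passed through both classes, nor matched to the members by level. The median log2 fold of the members tested was -0.18, against -0.01 over all genes. This and the next 4 comparisons share the same 3 sums of NK-like cells, so they are not independent of each other. Some of these traits were not particular to ILC1-like cells. Ptpn3 stood at 19.2 CPM in the cycling NK-like cluster and 17.5 in an unnamed cluster of 400 cells scored NK, against 16.7 in ILC1-like cells. Ptpn4 stood at 68.3 and 80.4 CPM, against 102. The unnamed cluster had 125 CPM of Ptprj and 86.2 of Ptpn6, against 76.4 and 83, but more Ptprc, at 2375 against 1872 CPM.

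Ptprc stood at 2094, 1849 and 1768 CPM in ILC1-like cells, against 2814, 2800 and 2716 CPM in NK-like cells (log2 fold -0.53, SE 0.05, edgeR adjusted p = 1.1e-12). Ptpn4 stood at 103, 98.7 and 104 CPM in ILC1-like and 169, 195 and 179 CPM in NK-like cells (log2 fold -0.81, SE 0.09, edgeR adjusted p = 1.5e-10), and Ptpn12 at 102, 113 and 103 CPM in ILC1-like and 182, 189 and 175 CPM in NK-like cells (log2 fold -0.76, SE 0.09, edgeR adjusted p = 5.2e-10). For all 3 genes every ILC1-like tag was below every NK-like tag. Ptpre (81.3, 103 and 89.4 CPM in ILC1-like cells; log2 fold -0.36, edgeR adjusted p = 0.0051) and Ptpn2 (107, 118 and 98.8 CPM; log2 fold -0.35, edgeR adjusted p = 0.0033) were lower by less; DESeq2 called neither (DESeq2 adjusted p = 0.11 and 0.089).

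Ptprk, a homophilic adhesion receptor gene, had 0 UMIs in ILC1-like cells and 14.2, 10.9 and 9.45 CPM in NK-like cells. Against a floor of 3 counts over the class, its level was at least 11-fold lower in ILC1-like cells. Its call was fixed by the filter.

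On the higher side, Ptprj stood at 82.7, 71 and 76.9 CPM in ILC1-like and 54.6, 43.3 and 45.2 CPM in NK-like cells (log2 fold 0.72, SE 0.12, edgeR adjusted p = 3.4e-06). Ptpn6 stood at 104, 67.7 and 82.3 CPM against 63.6, 54.4 and 53.1 CPM in NK-like cells (log2 fold 0.58, SE 0.12, edgeR adjusted p = 9.2e-05). Ptpn7 stood at 92.9, 134 and 134 CPM against 82.4, 88.8 and 89.4 CPM in NK-like cells (log2 fold 0.50, SE 0.10, edgeR adjusted p = 5.2e-05). None of these 3 overlapped between the classes. Ptpn3, like Ptpn4 a FERM and PDZ domain phosphatase gene, was 3.47-fold higher (17.4, 15.5 and 17.3 CPM against 3.69, 4.74 and 5.87 CPM in NK-like cells; log2 fold 1.80, SE 0.32, edgeR adjusted p = 6.9e-06), again without overlap. Ptpn22 was 1.2-fold higher (edgeR adjusted p = 6.8e-04), but its classes overlapped across tags (760, 561 and 571 CPM against 616, 474 and 497 CPM in NK-like cells), and without the tag as a block the call was lost (edgeR adjusted p = 0.19). Ptpn18 and Ptpn1, at 681, 712 and 631 CPM and 205, 204 and 181 CPM in ILC1-like cells and log2 folds of -0.06 and 0.04, did not pass (edgeR adjusted p = 0.59 and 0.8), nor did Ptpra, at 87.1, 101 and 82.3 CPM (edgeR adjusted p = 0.12).

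**Figure D2:**
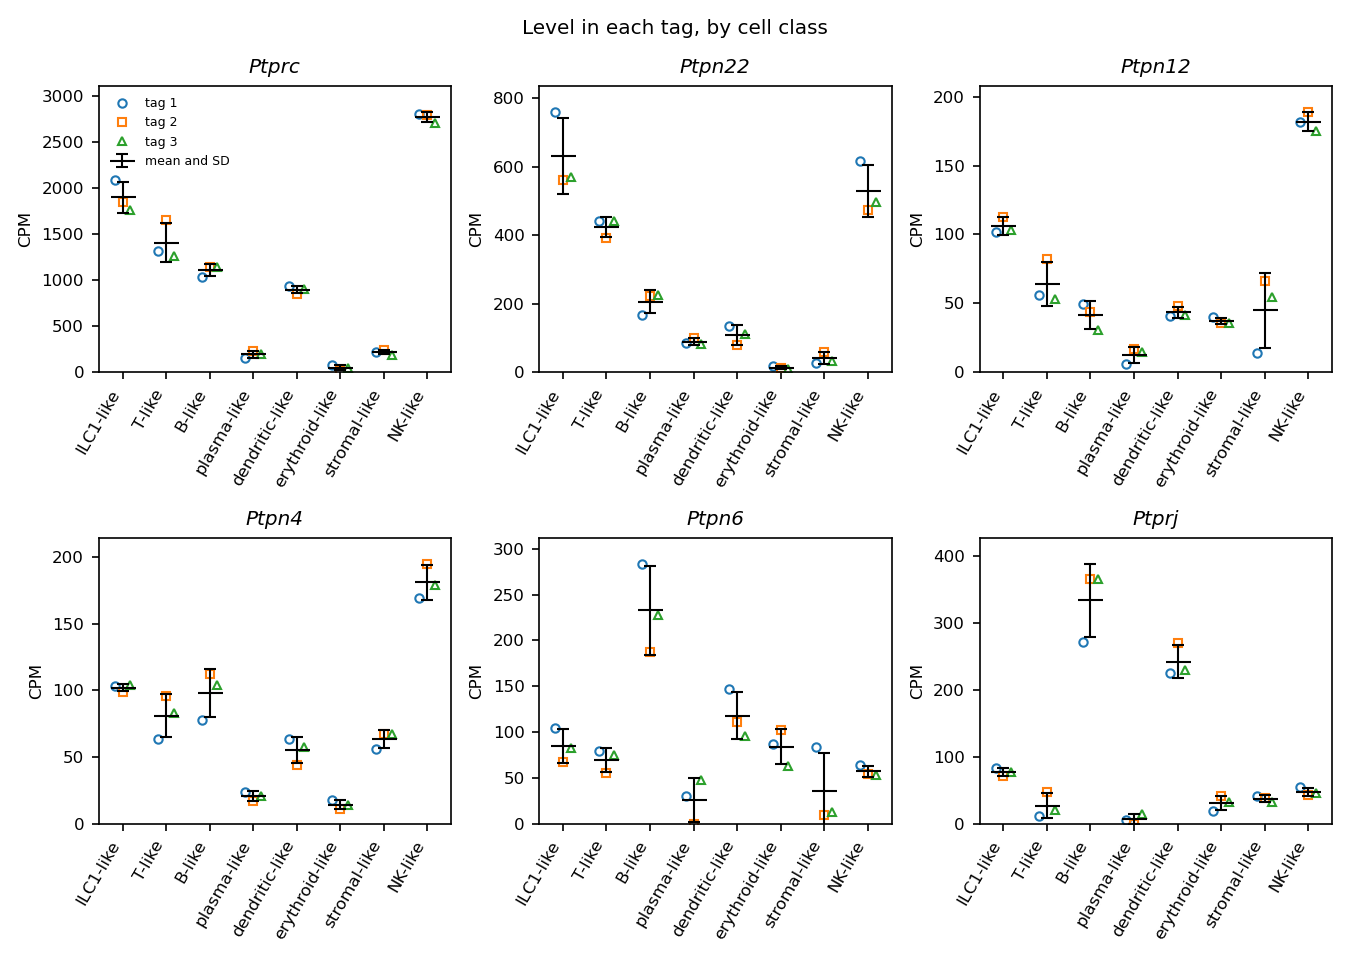
CPM of 6 phosphatase genes in each of 8 cell classes; open symbols are the 3 tags and the black bar with whiskers is their mean and SD (n = 3 tags). Ptprc, Ptpn12 and Ptpn4 have their highest values in NK-like cells, at the right of each panel, while Ptpn6 and Ptprj have them in B-like cells.

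T-like cells, 155 in all, had lower levels of Ptpn12, Ptpre, Ptpn4 and Ptprc than NK-like cells and more Ptpn13. Of 22 members tested, 2 were higher and 5 lower (edgeR), where 8.85% of 11353 genes were higher and 9.9% lower; the members' share was near this on the higher side and above it on the lower. The median log2 fold was -0.33 for the members and -0.08 over all genes. Ptpn12 stood at 55.7, 82.3 and 53.3 CPM in T-like and 182, 189 and 175 CPM in NK-like cells (log2 fold -1.37, SE 0.19, edgeR adjusted p = 6.7e-11). Ptpre stood at 43.8, 68.6 and 38.3 CPM against 117, 123 and 117 CPM in NK-like cells (log2 fold -1.15, SE 0.22, edgeR adjusted p = 2.2e-06). Ptprc stood at 1314, 1652 and 1262 CPM against 2814, 2800 and 2716 CPM in NK-like cells (log2 fold -0.78, SE 0.16, edgeR adjusted p = 1.8e-05). Ptpn4, at 63.7, 96 and 83.3 CPM in T-like cells, had a log2 fold of -0.93 (edgeR adjusted p = 4.1e-06). None of these 4 genes overlapped between the classes.

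Ptpn13, a large phosphatase gene with FERM and PDZ domains, rested on 21 UMIs in T-like cells. It stood at 15.9, 20.6 and 23.3 CPM there, against 2.05, 3.05 and 2.75 CPM in NK-like cells, a 9.15-fold difference (log2 fold 3.19, SE 0.59, edgeR adjusted p = 9.2e-07). Ptpn6 passed narrowly, at 79.6, 54.8 and 74.9 CPM in T-like and 63.6, 54.4 and 53.1 CPM in NK-like cells (log2 fold 0.60, SE 0.21, edgeR adjusted p = 0.03), and its tags overlapped. Its mean CPM, 69.8 in T-like and 57 in NK-like cells, lay closer together than this fold, which is fitted after TMM scaling. Ptprj was called lower (log2 fold -0.84, SE 0.31, edgeR adjusted p = 0.04) though tag 2 was higher in T-like cells, at 11.9, 48 and 20 CPM against 54.6, 43.3 and 45.2 CPM in NK-like cells. The call of Ptprj was lost by DESeq2 (adjusted p = 0.39) and without the shallow NK-like cluster (log2 fold -0.71, edgeR adjusted p = 0.11). Leaving out tag 3, which held 89 of the T-like cells, ended 4 of the 7 calls: Ptprc, Ptprj, Ptpn13 and Ptpn6 then had edgeR adjusted p of 0.081, 0.45, 0.06 and 0.6. Ptpn22 (442, 391 and 441 CPM in T-like cells), Ptpn18 (717, 747 and 696 CPM) and Ptpn1 (87.6, 213 and 160 CPM) had log2 folds of -0.08, 0.24 and -0.15 and no call. Nor had Ptpn2 (75.6, 103 and 91.6 CPM) and Ptpra (63.7, 68.6 and 81.6 CPM), at -0.39 and -0.27.

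B-like cells differed from NK-like cells in most of the members tested. They had 7.98-fold more Ptprj and 4.69-fold more Ptpn6 than NK-like cells, and more Ptpn14 and Ptpn23. Another 13 members were lower, Ptprc, Ptpn22 and Ptpn12 among them. Of 23 members tested, 4 were higher and 13 lower (edgeR), where 21.2% of 11918 genes were higher and 22.1% lower. Ptpn13 and Ptprm passed the filter through NK-like cells only; of the 21 others, 4 were higher and 12 lower, near the share of all genes on the higher side and above it on the lower. The median log2 fold was -0.70 for the members tested and -0.04 over all genes.

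Ptprj, whose product CD148 sets the activity of Src-family kinases in B cells, stood at 271, 366 and 366 CPM in B-like cells, against 54.6, 43.3 and 45.2 CPM in NK-like cells (log2 fold 3.00, SE 0.11, edgeR adjusted p = 9.8e-23). Ptpn6, which acts below the inhibitory receptor CD22 in B cells, stood at 284, 187 and 228 CPM, against 63.6, 54.4 and 53.1 CPM in NK-like cells (log2 fold 2.23, SE 0.10, edgeR adjusted p = 3.0e-20). In both genes the lowest B-like tag was well above the highest NK-like tag. Ptpn14, a FERM domain phosphatase gene, stood at 5.97, 17.9 and 30.9 CPM in B-like cells, against 1.64, 1.49 and 1.19 CPM in NK-like cells (log2 fold 3.81, SE 0.41, edgeR adjusted p = 1.2e-09), and the B-like tags were far apart; without tag 3, the highest, the log2 fold was 2.96. Ptpn23, whose product sorts receptors in endosomes, stood at 16.9, 17.9 and 22.1 CPM, against 10.7, 9.15 and 8.54 CPM in NK-like cells (log2 fold 1.26, SE 0.25, edgeR adjusted p = 6.5e-05).

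Among the lower genes, Ptprc stood at 1034, 1141 and 1149 CPM in B-like and 2814, 2800 and 2716 CPM in NK-like cells (log2 fold -1.14, SE 0.07, edgeR adjusted p = 1.2e-15). Ptpn22 stood at 166, 223 and 226 CPM against 616, 474 and 497 CPM in NK-like cells (log2 fold -1.17, SE 0.10, edgeR adjusted p = 7.5e-12), and Ptpn12 at 49.8, 43.9 and 30.4 CPM against 182, 189 and 175 CPM in NK-like cells (log2 fold -2.01, SE 0.13, edgeR adjusted p = 1.1e-15). In these 3 genes every B-like tag lay below every NK-like tag. Ptpre was 3.02-fold lower (35.8, 30.9 and 34.3 CPM against 117, 123 and 117 CPM in NK-like cells), Ptpn7 2.55-fold (32.8, 47.2 and 21.1 CPM against 82.4, 88.8 and 89.4 CPM in NK-like cells) and Ptpn9 2.13-fold (21.9, 29.3 and 21.1 CPM against 56.7, 58.6 and 54.5 CPM in NK-like cells), with edgeR adjusted p of 1.1e-12, 5.4e-09 and 5.4e-07. Smaller differences passed for Ptpn2 (61.7, 81.3 and 79.5 CPM in B-like cells), Ptpn4 (77.6, 112 and 104 CPM), Ptpn18 (499, 467 and 423 CPM) and Ptpn11, at log2 folds of -0.70, -0.69, -0.43 and -0.49. The call of Ptpn11 was lost by DESeq2 (adjusted p = 0.14) and without tag 3 (log2 fold -0.32, edgeR adjusted p = 0.28). The rare adhesion receptor genes were lower too: Ptprk had 3 UMIs in B-like cells, or 0.995, 3.25 and 0 CPM, against 11.5 CPM [10.5 to 12.7] in NK-like cells, and Ptprm had 1 UMI, 0.995, 0 and 0 CPM, against 2.46, 2.27 and 2.11 CPM in NK-like cells. Ptprm, whose call the filter fixed, lost it without tag 2 or tag 3. Ptpn3 had 4 UMIs, 1.99, 1.63 and 0.491 CPM, against 3.69, 4.74 and 5.87 CPM in NK-like cells (log2 fold -1.95, SE 0.67, edgeR adjusted p = 0.018); without tag 3 its log2 fold was -0.98 (edgeR adjusted p = 0.45), and without tag 1 it was -2.65. The NK markers stood at 9.08 to 11.9% of their NK-like level in these cells, and Ptprc stood at 40.1%, Ptpn22 at 39.8% and Ptpn12 at 20.8% of theirs. Ptprk, at 7.11%, and Ptprm, at 12%, were near or within that background. Ptpn1 and Ptpra, at 185, 216 and 168 CPM and 79.6, 91 and 84.4 CPM in B-like cells, had log2 folds of 0.14 and -0.12 and no call.

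Conventional dendritic-like cells, which present antigen, also had high Ptprj and Ptpn6, and added receptor-type genes that were rare in lymphocytes: Ptpro, Ptprs and Ptprm. Of 23 members tested, 8 were higher and 8 lower than in NK-like cells (edgeR), where 29.4% of 12360 genes were higher and 27.5% lower. Without Ptpro, which passed the filter through dendritic-like cells only, 7 of 22 were higher and 8 lower, near the shares of all genes. The members' median log2 fold was 0.12, against -0.05 over all genes. Ptprj stood at 226, 270 and 229 CPM in dendritic-like and 54.6, 43.3 and 45.2 CPM in NK-like cells (log2 fold 2.66, SE 0.13, edgeR adjusted p = 2.0e-10). Ptpn6 stood at 147, 111 and 96 CPM against 63.6, 54.4 and 53.1 CPM in NK-like cells (log2 fold 1.35, SE 0.11, edgeR adjusted p = 1.5e-07). Neither overlapped between the classes. Markers of other cell types stood higher in this class too. The 8 monocyte or macrophage markers, all with UMIs, summed to 823 to 2031 CPM in the dendritic-like tags, against 284 to 317 CPM in NK-like cells, and the 6 platelet or megakaryocyte markers, all with UMIs, to 20.8 to 286 CPM, against 10.9 to 12.3 CPM in NK-like cells. Monocyte-like cells stood at 639 CPM of Ptprj, 292 of Ptpn6 and 168 of Ptpro, and platelet-like cells at 331 of Ptprj. The part of such cells in the dendritic-like levels was not tested.

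Ptpro, which encodes a receptor-type phosphatase known from kidney podocytes and macrophages, had 283 UMIs in dendritic-like cells (57.8, 45.9 and 56.3 CPM) and 6 in the far more numerous NK-like cells, 0.156 CPM [0.0572 to 0.339]. It had 0 UMIs in ILC1-like, T-like, B-like, plasma-like and erythroid-like cells. It passed the filter on low counts through dendritic-like cells only, so that its call (log2 fold 8.56, SE 0.29, edgeR adjusted p = 5.8e-12) was built into the choice of genes tested. Ptprs, a receptor for proteoglycans of the LAR group, stood at 34.4, 42.8 and 44.5 CPM in dendritic-like and 4.35, 6.75 and 4.96 CPM in NK-like cells (log2 fold 3.23, SE 0.19, edgeR adjusted p = 2.8e-09). Ptprm differed widely between tags, at 1.3, 8.76 and 42.4 CPM in dendritic-like and 2.46, 2.27 and 2.11 CPM in NK-like cells (log2 fold 2.86, SE 0.59, edgeR adjusted p = 8.5e-04), was higher in 2 of 3 tags, and was not called by DESeq2 (adjusted p = 0.11). Its log2 fold was 1.41 without tag 3 and 3.60 without tag 1.

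Of the non-receptor genes, Ptpn3 stood at 19.5, 23.2 and 22.5 CPM in dendritic-like and 3.69, 4.74 and 5.87 CPM in NK-like cells (log2 fold 2.51, SE 0.23, edgeR adjusted p = 2.9e-07). Ptpn21, a FERM domain phosphatase gene, stood at 11.7, 25.3 and 15 CPM against 5.33, 4.67 and 5.87 CPM in NK-like cells (log2 fold 2.03, SE 0.28, edgeR adjusted p = 2.7e-05). Both were higher in every tag, as was Ptpn23, at a log2 fold of 0.80 (edgeR adjusted p = 0.0074). Lower in dendritic-like cells were Ptpn7 (13.6, 9.79 and 18.8 CPM against 82.4, 88.8 and 89.4 CPM in NK-like cells; log2 fold -2.32, SE 0.18, edgeR adjusted p = 5.1e-08) and Ptpn22 (136, 79.4 and 112 CPM against 616, 474 and 497 CPM in NK-like cells; log2 fold -1.98, SE 0.11, edgeR adjusted p = 2.0e-09). Ptpn12 (40.9, 47.9 and 41.3 CPM), Ptpn4 (63.6, 44.3 and 57.4 CPM) and Ptprc (938, 854 and 900 CPM) were lower by 3.37-fold, 2.66-fold and 2.49-fold. All of these lower genes lay below NK-like cells in every tag. Ptpn18 (374, 332 and 411 CPM), Ptpn1 (126, 133 and 107 CPM) and Ptprk completed the lower side, at log2 folds of -0.61, -0.34 and -2.79. The call of Ptpn1 was lost by DESeq2 (adjusted p = 0.084), without tag 1 (edgeR adjusted p = 0.099), without tag 3 (0.13) and without the deepest cells (0.15). Ptprk rested on 7 UMIs in dendritic-like cells (2.6, 1.03 and 0.536 CPM). The NK markers stood at 5.08 to 11.6% of their NK-like level in this class, and Ptpn7 stood at 16.1% and Ptpn22 at 20.4% of theirs; Ptprk, at 11.4%, was within that background. Ptpre, Ptpra and Ptpn2, at 84.4, 81.4 and 108 CPM, 94.1, 102 and 109 CPM and 114, 96.4 and 86.3 CPM in dendritic-like cells, had no call.

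Erythroid-like cells had little Ptprc, Ptpn22 and Ptpn4. Ptpn14, Ptprs and Ptpn6 were higher than in NK-like cells. Of 22 members tested, 5 were higher and 14 lower (edgeR), where 29.9% of 11971 genes were higher and 44.4% lower, and the median log2 fold was -1.14 for the members and -0.42 over all genes. Ptprk and Ptprm passed the filter through NK-like cells only; of the 20 others, 5 were higher and 12 lower, a share near that of all genes on the higher side and above it on the lower. Ptprc stood at 78.2, 26.9 and 42.6 CPM in erythroid-like and 2814, 2800 and 2716 CPM in NK-like cells (log2 fold -5.68, SE 0.18, edgeR adjusted p = 2.0e-15), and Ptpn22 at 17.7, 12.5 and 9.16 CPM against 616, 474 and 497 CPM in NK-like cells (log2 fold -5.29, SE 0.17, edgeR adjusted p = 2.1e-15). Ptprc was thus at 1.67% and Ptpn22 at 2.1% of the NK-like level, both within the 1 to 3.86% at which the NK markers themselves stood in this class. Ptpn4, at 17.7, 10.7 and 13.7 CPM, was 11.2-fold lower (log2 fold -3.48, SE 0.17, edgeR adjusted p = 6.8e-13).

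Ptpn18, at 123, 122 and 91.6 CPM in erythroid-like cells, Ptpn12, at 39.9, 35.8 and 35.6 CPM, and Ptpn1, at 32.5, 46.5 and 44 CPM, were lower by 5.72-fold, 4.3-fold and 4.07-fold, with edgeR adjusted p of 5.3e-13, 4.1e-11 and 1.1e-10. They stood above the NK marker background, at 14.3, 19.9 and 22.2% of the NK-like level. Ptpn9, at 13.3, 17.9 and 13 CPM, Ptpn2, at 56.1, 60.9 and 57.4 CPM, Ptpre, at 47.2, 78.8 and 50.7 CPM, and Ptpra, at 54.6, 82.4 and 57.8 CPM, had log2 folds of -1.80, -1.07, -0.89 and -0.57. Ptpn23 and Ptpn21 were lower on 12 and 9 UMIs (4.43, 1.79 and 2.82 CPM and 0, 1.79 and 2.82 CPM). Neither call held without tag 3, where Ptpn21 had a log2 fold of -2.44 (edgeR adjusted p = 0.088) against -1.21 with all tags. Ptprk and Ptprm had 0 UMIs in erythroid-like cells, so their levels were at least 15.7-fold and at least 3.11-fold lower against a floor of 3 counts over the class. Both calls were fixed by the filter.

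Ptpn14 stood at 31, 43 and 21.1 CPM in erythroid-like cells, against 1.64, 1.49 and 1.19 CPM in NK-like cells (log2 fold 4.58, SE 0.31, edgeR adjusted p = 8.4e-11), and Ptprs at 22.1, 21.5 and 16.2 CPM, against 4.35, 6.75 and 4.96 CPM in NK-like cells (log2 fold 2.05, SE 0.28, edgeR adjusted p = 2.0e-06). Neither overlapped. Ptpn6, whose product restrains erythropoietin receptor signals, stood at 87.1, 102 and 63.4 CPM in erythroid-like cells, against 63.6, 54.4 and 53.1 CPM in NK-like cells (log2 fold 0.67, SE 0.14, edgeR adjusted p = 2.5e-04), and the highest NK-like tag lay above the lowest erythroid-like tag. Ptpn13 (4.43, 5.37 and 4.93 CPM against 2.05, 3.05 and 2.75 CPM in NK-like cells; log2 fold 1.08, SE 0.45, edgeR adjusted p = 0.039) and Ptpn3 (0.90; higher in 2 of 3 tags) passed narrowly, and neither was called by DESeq2 (adjusted p = 0.09 and 0.26). Without tag 3, which held 96 of the 148 cells, Ptpn3 had a log2 fold of 0.12 (edgeR adjusted p = 0.9) and Ptpn13 one of 1.12 (edgeR adjusted p = 0.22). Ptpn7, at 60.5, 57.3 and 82.4 CPM in erythroid-like cells, had a log2 fold of -0.13, and Ptprj, at 19.2, 41.2 and 31.7 CPM, one of -0.42, and neither passed. Haemoglobin genes took 1.07% of the UMIs of this class (0.0205 to 1.53% by tag) and 0.00314% of those of NK-like cells, and the erythroid markers summed to 6209 to 19571 CPM in the erythroid-like tags, against 225 to 247 CPM in NK-like cells. The tags of this class thus differed in make-up, and the part of that in the levels was not tested.

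**Figure D3:**
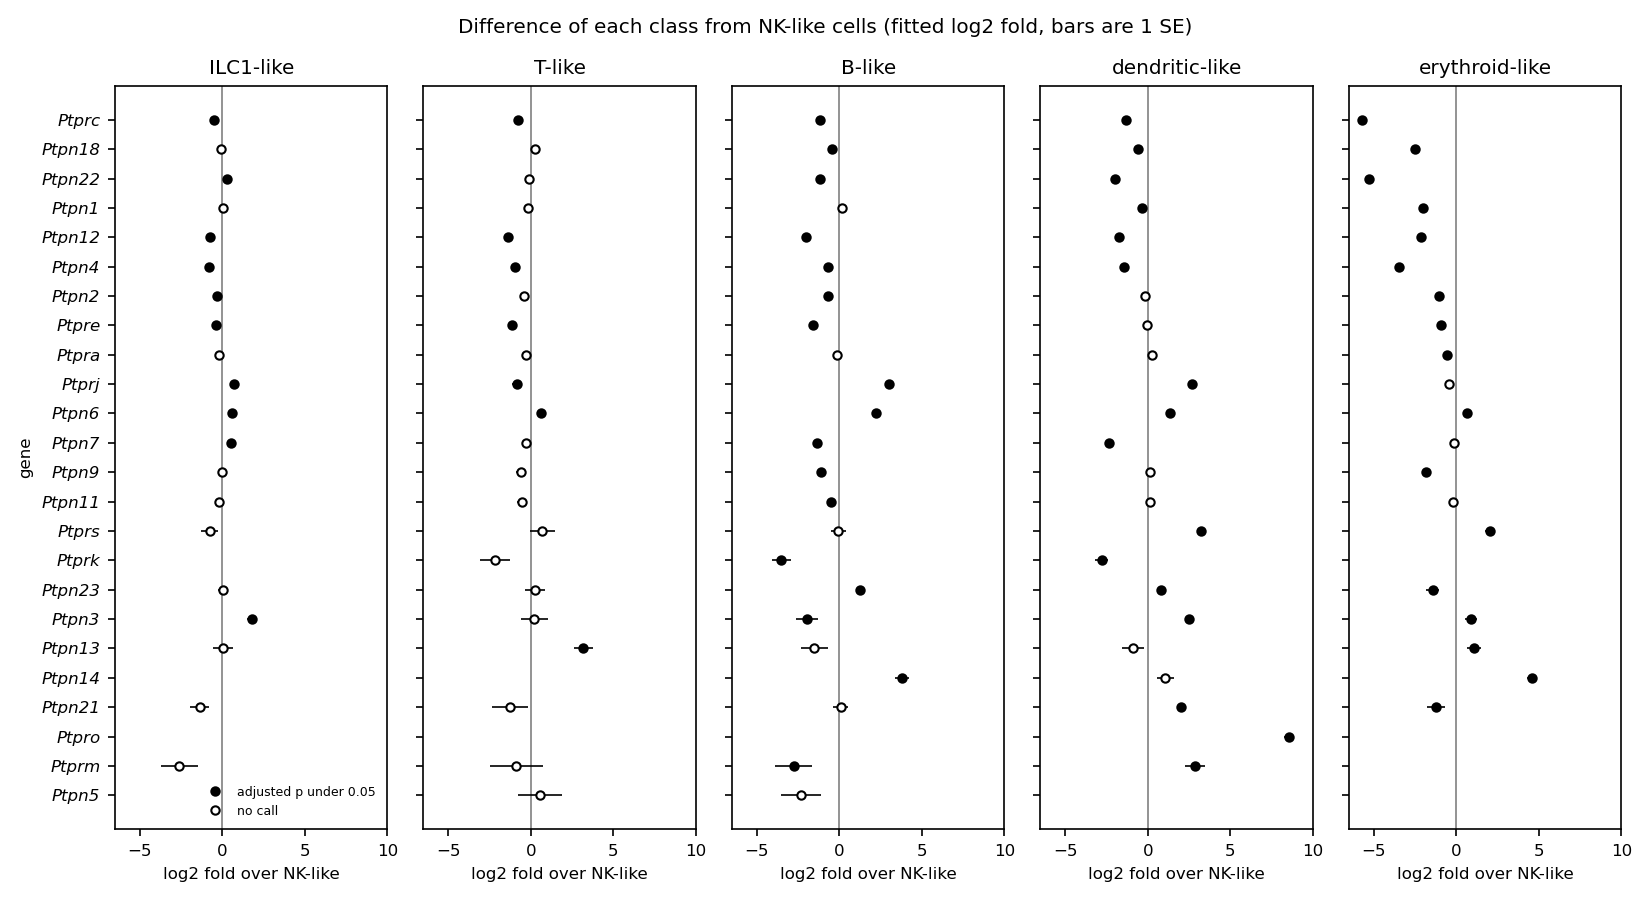
Fitted log2 fold of each tested phosphatase gene (rows) in 5 classes over NK-like cells; whiskers are 1 SE, filled circles have an edgeR adjusted p under 0.05 and open circles have no call. Genes with 0 UMIs in 1 of the classes are left out of that panel. Ptprj and Ptpn6 lie to the right of 0 in B-like and dendritic-like cells, where most of the leading genes lie to the left.

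Plasma-like and stromal-like cells were too few for a test, with 4 and 9 cells in their smallest tag against the minimum of 10, and their levels are a description. In plasma-like cells immunoglobulin genes took 51.6% of the UMIs, which lowers the CPM of everything else. Ptpn18 stood at 156 CPM [125 to 192] in them, Ptpn22 at 85 CPM [62.7 to 113], Ptpra at 56.7 CPM [38.8 to 80], Ptpn1 at 53.2 CPM [35.9 to 75.9] and Ptprc at 186 CPM [152 to 225]. Ptprc was thus at 6.69% of its NK-like level, within the 3.1 to 7.31% of the NK markers in this class, and is read as background; Ptpn18, Ptpn22, Ptpra and Ptpn1 were at 22, 16.2, 53.6 and 27.8%. With immunoglobulin UMIs left out of the total, the 5 levels became 322, 176, 117, 110 and 384 CPM. Ptprj had 6 UMIs, 10.6 CPM [3.9 to 23.1], or 22 CPM without immunoglobulin UMIs, against 340 CPM [321 to 359] in B-like cells, the class from which plasma cells derive. Ptpn6 had 21 UMIs, or 76.9 CPM on the same scale, against 236 CPM [221 to 252] in B-like cells.

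Stromal-like cells, with collagen genes among their markers, held receptor-type genes that were rare in the lymphocyte classes. The LAR group gave Ptprd at 488, 264 and 257 CPM (pooled, 275 CPM [247 to 306]), Ptprf at 55.8, 119 and 93.2 CPM and Ptprs at 97.7, 86 and 93.2 CPM. Tag 1 held 9 of the 145 cells and its values rest on few UMIs. Ptprg, with a carbonic anhydrase-like outer domain, stood at 140 CPM [120 to 162], against 0.416 CPM [0.238 to 0.675] in NK-like cells, and Ptprb, known from vascular endothelium, at 128 CPM [109 to 150], against 0.0519 CPM [0.00629 to 0.188] in NK-like cells. Summed endothelial markers stood at 408 to 1982 CPM in the tags of this class and at 50.2 to 61.4 CPM in NK-like cells; their part in the Ptprb value was not tested. Among adhesion receptors of the MAM group, Ptprk stood at 78.8 CPM [63.9 to 96.1] and Ptprm at 47.9 CPM [36.5 to 61.8]. The FERM domain genes Ptpn13, Ptpn14, Ptpn3 and Ptpn21 stood at 209 CPM [184 to 236], 78 CPM [63.1 to 95.2], 45.5 CPM [34.4 to 59.1] and 21.9 CPM [14.4 to 31.9]. Ptprq, Ptprz1, Ptpro and Ptpru gave 16, 15, 7 and 5 UMIs in stromal-like cells. Ptprc, at 225 CPM [199 to 253], was 8.09% of the NK-like level, within the 5.13 to 9.52% of the NK markers there. Ptpra, at 156 CPM [135 to 180], and Ptpn9, at 56.8 CPM [44.3 to 71.8], were not below their NK-like levels of 106 CPM [103 to 109] and 56.8 CPM [54.5 to 59.3].

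NK cells mature from stages marked by CD27 to stages marked by CD11b, the product of Itgam. NK-like cells were thinned to 2500 UMIs each and classed by the UMIs of these genes, which left out 1275 shallower cells. The 7271 others comprised 867 Cd27-only cells, 443 with both, 2567 Itgam-only cells and 3394 with neither. The classes rest on few molecules: 65.4% of Itgam-only cells had exactly 1 Itgam UMI and 80.7% of Cd27-only cells exactly 1 Cd27 UMI. Before thinning, Itgam-only cells had a median of 3838 UMIs and Cd27-only cells 5096; the part of this gap in the differences was not tested.

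Itgam-only cells had more Ptpn4, Ptpre and Ptpn12 and less Ptprj than Cd27-only cells, with differences of 1.21-fold to 1.54-fold. Of 19 members tested, 4 were higher and 2 lower by edgeR's quasi-likelihood test, where 5.66% of 9994 genes were higher and 7.27% lower; the members' share was above this on the higher side and near it on the lower. The median log2 fold was 0.00 for the members and 0.00 over all genes. Ptpn4 stood at 191, 213 and 206 CPM in Itgam-only cells, against 136, 170 and 141 CPM in Cd27-only cells (log2 fold 0.40, SE 0.07, edgeR adjusted p = 7.5e-07). Ptpre stood at 130, 137 and 131 CPM, against 88, 107 and 102 CPM in Cd27-only cells (log2 fold 0.38, SE 0.08, edgeR adjusted p = 9.6e-05), and Ptpn12 at 207, 190 and 201 CPM, against 152, 169 and 154 CPM in Cd27-only cells (log2 fold 0.28, SE 0.07, edgeR adjusted p = 0.0014). In these 3 genes every Itgam-only tag lay above every Cd27-only tag, and cells with both UMIs lay between the class means, at 167, 189 and 182 CPM of Ptpn4, 127, 126 and 111 CPM of Ptpre and 187, 179 and 171 CPM of Ptpn12.

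Ptprj stood at 41, 30.9 and 36.2 CPM in Itgam-only and 59.5, 52.4 and 47.6 CPM in Cd27-only cells (log2 fold -0.62, SE 0.13, edgeR adjusted p = 1.8e-05), without overlap. Cells with both UMIs stood at 61.4, 48.4 and 51.6 CPM, level with Cd27-only cells, and cells with neither at 55.4, 44.6 and 46.2 CPM. Ptprc, at 2897, 3012 and 2838 CPM in Itgam-only and 2540, 2576 and 2636 CPM in Cd27-only cells, differed by 1.1-fold (log2 fold 0.13, SE 0.05, edgeR adjusted p = 0.044). The call of Ptprc was lost without tag 1 or tag 2, without the tag block (edgeR adjusted p = 0.16) and with other size factors. Ptpn3 was low and uneven, at 3.07, 1.76 and 5.17 CPM in Itgam-only and 3.64, 4.58 and 14.4 CPM in Cd27-only cells (log2 fold -1.18, SE 0.38, edgeR adjusted p = 0.019). Without tag 3, which held its highest values, its log2 fold was -0.87 (edgeR adjusted p = 0.37), and without the cycling cluster it was -1.08 (edgeR adjusted p = 0.059).

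By DESeq2, Ptpn4 was the only member called between these classes. The counts also moved with the gate: at least 2 UMIs of the gate gene left 3 members called, Ptpn4, Ptpre and Ptpn12. Of Itgam-only cells 61.3% and of Cd27-only cells 18% lay in the NK-like cluster led by Gzmb and Klrg1, while 36.8% and 76.5% lay in the one led by Ccr2 and Emb. Ptpn6 (log2 fold -0.24, edgeR adjusted p = 0.15) and Ptpn11 (0.32, edgeR adjusted p = 0.069) had no call. Ptpn22 stood at 578, 479 and 488 CPM in Itgam-only and 613, 486 and 517 CPM in Cd27-only cells (edgeR adjusted p = 0.21), and Ptpn18 at 701, 736 and 718 CPM in Itgam-only and 730, 759 and 745 CPM in Cd27-only cells (edgeR adjusted p = 0.26). Ptpn1 stood at 204, 188 and 194 CPM in Itgam-only and 186, 177 and 188 CPM in Cd27-only cells (edgeR adjusted p = 0.76). Ptpn2 stood at 140, 141 and 124 CPM in Itgam-only and 136, 155 and 140 CPM in Cd27-only cells (edgeR adjusted p = 0.29), and Ptpra at 110, 112 and 105 CPM in Itgam-only and 86.2, 116 and 115 CPM in Cd27-only cells (edgeR adjusted p = 0.98). None of these passed the threshold.

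**Figure D4:**
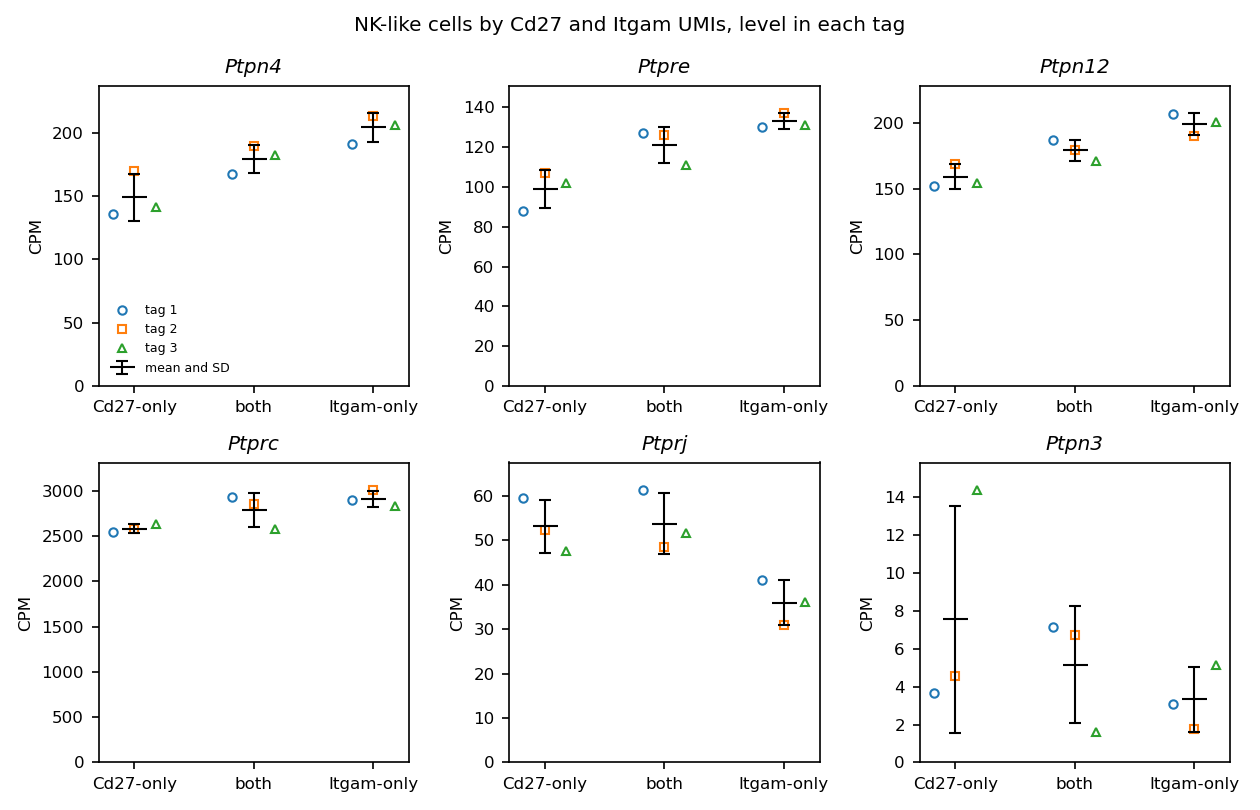
CPM of 6 phosphatase genes in NK-like cells with Cd27 UMIs only, both, or Itgam UMIs only; open symbols are the 3 tags, and the black bar with whiskers is their mean and SD (n = 3 tags). Ptpn4, Ptpre and Ptpn12 lie higher and Ptprj lies lower in Itgam-only than in Cd27-only cells in every tag, while Ptpn3 has 1 high value, in tag 3 of the Cd27-only cells.

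Genes that work with the phosphatases were counted by edgeR's call in 4 lists. The first was drawn up for receptors with ITIM or related inhibitory motifs, which recruit SHP-1 or SHP-2. Not all its members are of this kind: Klra4 and Klra8 encode activating receptors of the Ly49 family. The other lists held tyrosine kinases that the phosphatases oppose, other phosphatases of the superfamily, and partners and adaptors. In Itgam-only against Cd27-only cells, where 5.66% of all genes were higher and 7.27% lower, 9 of 20 receptor genes were higher and 4 lower, as were 2 and 3 of 20 kinase genes, 2 and 2 of 29 other phosphatase genes and 2 and 3 of 19 partner genes. In ILC1-like cells (11.6% of all genes higher and 10.6% lower than in NK-like cells) the counts were 9 and 13 of 25 receptor, 4 and 6 of 21 kinase, 4 and 7 of 31 other phosphatase and 5 and 6 of 19 partner genes. In T-like cells (8.85% and 9.9% of all genes) they were 7 and 15 of 26, 5 and 9 of 22, 4 and 5 of 31 and 2 and 7 of 19. In B-like cells (21.2% and 22.1%) they were 13 and 15 of 30, 10 and 12 of 24, 9 and 8 of 32 and 8 and 8 of 22. In dendritic-like cells (29.4% and 27.5%) they were 15 and 15 of 33, 11 and 11 of 25, 9 and 10 of 31 and 9 and 8 of 22. In erythroid-like cells (29.9% and 44.4%) 22 of 23 receptor genes were lower, and the other counts were 2 and 20 of 22, 6 and 19 of 32 and 1 and 17 of 19. Some receptor genes, such as Klra4, Klra8, Cd5 and Cd200r1, were also markers used to name classes, so part of these counts follows from the naming. The filter on low counts keeps a gene that passes in 1 class alone, and its direction is then largely set. Which listed genes passed in this way was not examined, so part of these counts may follow from the filter.

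Median log2 folds of the receptor list were 0.01 between the NK-like gates, -0.40 in ILC1-like, -2.02 in T-like, -0.29 in B-like, 0.00 in dendritic-like and -5.21 in erythroid-like cells, against 0.00, -0.01, -0.08, -0.04, -0.05 and -0.42 over all genes. Klra9, of the Ly49 family, averaged 736 ± 105 CPM in Itgam-only and 346 ± 76.9 CPM in Cd27-only cells (SD, n = 3 tags; log2 fold 1.05, SE 0.06, edgeR adjusted p = 9.6e-75), and Klrg1, a receptor of late NK cells, 152 ± 14.4 CPM in Itgam-only and 39.3 ± 11.1 CPM in Cd27-only cells (log2 fold 1.88, SE 0.10, edgeR adjusted p = 2.8e-74). Slamf6 went the other way, at 12 ± 0.723 CPM in Itgam-only and 40.9 ± 6.02 CPM in Cd27-only cells (log2 fold -1.81, SE 0.17, edgeR adjusted p = 3.1e-23). Genes of the Ly49 family are near copies of each other, so their counts may be shared between members. Btla, Siglecg and Cd22, inhibitory receptors of B cells, averaged 367 ± 50.3, 155 ± 14 and 171 ± 12.4 CPM in B-like cells, against 1.03 ± 0.625, 0.521 ± 0.0293 and 1.6 ± 0.834 CPM in NK-like cells (SD, n = 3 tags). The filter on low counts lay at 1.55 CPM in the comparison of B-like with NK-like cells. The NK-like means of Btla and Siglecg were under it, so their direction was largely set by the choice of genes tested. In dendritic-like cells Btla, Clec12a and Cd300a led, at log2 folds of 7.59, 9.02 and 8.21. There the filter lay at 1.56 CPM, and whether these genes passed it through dendritic-like cells only was not examined.

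Of the kinases, Tec averaged 61.1 ± 1.7 CPM in Itgam-only and 84.6 ± 11.2 CPM in Cd27-only cells (log2 fold -0.52, SE 0.10, edgeR adjusted p = 6.3e-06), and Fgr 18.6 ± 3.7 CPM in Itgam-only and 31.4 ± 3.36 CPM in Cd27-only cells (log2 fold -0.77, SE 0.17, edgeR adjusted p = 9.7e-05). Fyn, a Src-family kinase on which CD45 acts, averaged 370 ± 43 CPM in ILC1-like and 735 ± 24.9 CPM in NK-like cells (log2 fold -0.99, SE 0.07, edgeR adjusted p = 4.1e-19). B-like cells had the Src-family kinase Blk (575 ± 120 CPM, against 0.726 ± 0.134 CPM in NK-like cells) and Btk (151 ± 23.9 CPM, against 1.38 ± 0.342 CPM in NK-like cells). The NK-like means of Blk and Btk were under the filter of 1.55 CPM, so their direction was largely set by the choice of genes tested. Of the other phosphatases, the MAP kinase phosphatase gene Dusp2 averaged 559 ± 120 CPM in Itgam-only and 342 ± 68 CPM in Cd27-only cells (log2 fold 0.66, SE 0.06, edgeR adjusted p = 1.1e-28), and Eya1 46.2 ± 15.1 CPM in ILC1-like and 114 ± 7.77 CPM in NK-like cells (log2 fold -1.23, SE 0.13, edgeR adjusted p = 4.3e-12). Of the partners, Lpxn, whose product leupaxin binds PTP-PEST, averaged 141 ± 60.5 CPM in ILC1-like and 37.4 ± 11.4 CPM in NK-like cells (log2 fold 1.90, SE 0.11, edgeR adjusted p = 5.9e-22), and 30.2 ± 6.58 CPM in Itgam-only and 48.1 ± 15 CPM in Cd27-only cells (log2 fold -0.69, SE 0.13, edgeR adjusted p = 6.8e-06).

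Of the 38 genes, 17 overlap another annotated gene on the same strand, Ptprc, Ptpn22, Ptpn4 and Ptpre among them, so some of their counts may belong to the overlapping gene. The rarest genes gave, over all analysed cells, 82 UMIs of Ptpn5, 66 of Ptprq, 51 of Ptprh, 19 each of Ptprn, Ptprn2 and Ptprz1, 14 of Ptprt, 7 of Ptprr and 6 of Ptpru. Of these, 74 UMIs of Ptpn5, a phosphatase gene best known from brain, lay in NK-like cells, and 15 of Ptprz1 and 5 of Ptpru lay in stromal-like cells. Ptprh had 10 UMIs in dendritic-like cells (1.87 CPM [0.897 to 3.44]) and 36 in NK-like cells (0.935 CPM [0.655 to 1.29]). Ptprn, whose product sits in secretory granules, had 5 UMIs in erythroid-like cells (1.23 CPM [0.398 to 2.86]) and 6 in NK-like cells (0.156 CPM [0.0572 to 0.339]). A level under the floor of a class was not detectable, which does not show that the gene is silent there.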

How the data were processed

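Single-cell RNA of wild-type mouse spleen was measured with a 10x Genomics 3′ kit, per the labels' protocols. The deposited matrix holds raw UMI counts per gene and barcode, not normalised, made with Cell Ranger 7.0.0 per the file headers; the authors' notes also name Seurat and the build mm10. Whether intronic reads were counted is not given in the sources used here.

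Barcodes with 500 to 6000 genes, at most 10% mitochondrial counts and 1 tag were kept. Tags were assigned from the deposited tag counts, with a threshold per tag (133, 187 and 130 counts); 3567 barcodes with several tags, which include doublets, and 479 with none were left out. Clusters came from scanpy 1.11.5 (2000 variable genes, 30 components, 15 neighbours, Leiden resolution 0.3), without the phosphatase genes, the listed partner genes, and mitochondrial, ribosomal and cell-cycle genes. A cluster was named from markers of 16 cell types where its score reached 0.5 on at least 3 markers. The name was withheld where markers of another type were more numerous among its 10 leading genes. An ILC1 name was also withheld where Il23r or another marker of other innate lymphoid cells led. Clusters that merged types were first divided again at resolution 0.3. In all, 546 cells stayed unnamed, among them clusters of 400 and 132 cells that reached the score for NK (0.886) and ILC1 (0.843). Rebuilt names may differ from the authors' own.

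Counts were summed per class and tag and tested with edgeR 4.0.16 (quasi-likelihood, TMM scaling, filterByExpr, tag as a block, R 4.3.3), with Benjamini-Hochberg adjustment over all genes tested and a threshold of 0.05. Sums of different classes with the same tag come from cells that carry that tag, so the tag pairs them. DESeq2 1.42.0, other scaling, no filter, no block, each tag left out, the deepest cells left out and other gates were alternatives; leaving out the shallow or the cycling NK-like cluster was added after seeing the data. Of 8 comparisons planned, 6 were tested.

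Every phosphatase gene with at least 3 UMIs is named with a value. In the 6 tested comparisons, tag values are given for the 10 genes with most UMIs and for those past the threshold with a log2 fold of at least 1; other genes are examples from the fixed lists in order of adjusted p. The genes and lists were chosen with earlier results of these data known.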

Additional observations from a re-analysis of the deposited data

How the results depend on the processing

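Of the 76 phosphatase gene calls, none changed direction under the alternatives run: 687 alternative values kept the call, 76 lost it and 0 reversed. DESeq2 lost the most (20), followed by leaving out tag 3 (15). Between Itgam-only and Cd27-only cells 1293 genes were called, against 378 by DESeq2, 586 without the tag as a replicate block, 2267 with classes from unthinned counts, 480 with at least 2 gate UMIs, and 789 to 1075 without 1 tag. The 4 higher phosphatase genes became 1 by DESeq2 and 2 to 5 without 1 tag. The 2 lower ones became 0 by DESeq2, 1 without the replicate block, 4 unthinned, 0 with at least 2 gate UMIs and 1 to 3 without 1 tag. DESeq2 also called fewer genes in ILC1-like (1369, against 2557) and T-like cells (1216, against 2129; 1040 to 1946 without 1 tag). In T-like cells the 2 higher phosphatase genes became 1 by DESeq2, without the count filter, without the deepest cells and with the unnamed NK-scored clusters added, and 0 to 2 without 1 tag; the 5 lower ones became 3 to 6 without 1 tag. In erythroid-like cells the 5 higher ones became 3 by DESeq2, 3 with the unnamed clusters added and 3 to 5 without 1 tag. The cause was not tested. Without the replicate block 4 gene calls were lost: Ptprc and Ptpn3 between the NK-like gates, Ptpn22 in ILC1-like and Ptprj in T-like cells. The 2 planned comparisons of plasma-like and stromal-like cells were not run for want of cells. Depth limits the genes under 100 UMIs and the gates, where most cells rest on 1 molecule.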

Other observations

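Classes outside the comparisons of the report also differed in their phosphatase genes, and their values are given without a test. Monocyte-like cells (80 cells) stood at 639 CPM of Ptprj [570 to 715], 447 of Ptpre [389 to 511], 344 of Ptpn1 [293 to 400] and 292 of Ptpn6 [246 to 344]. Their Ptpro level of 168 CPM [133 to 208] rested on 81 UMIs and was above that of dendritic-like cells, 52.9 CPM [46.9 to 59.5]. Neutrophil-like cells, only 19, stood at 3086 CPM of Ptprc [2680 to 3536] and 522 of Ptpre [363 to 726]. Progenitor-like cells (155 cells) stood at 320 CPM of Ptpre [296 to 345], 48.9 of Ptprs [39.9 to 59.3] and 35.6 of Ptpn14 [28 to 44.6], and at 250 CPM of Ptprc [229 to 272]. Platelet-like cells (89 cells) stood at 1280 CPM of Ptpn18 [1164 to 1405], 426 of Ptpn1 [360 to 500], 331 of Ptprj [273 to 397] and 184 of Ptpn11 [142 to 235]; the NK markers stood at 30.5 to 62.9% of their NK-like level in these cells.

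The clusters left unnamed held the highest lymphoid levels of a pair of rare members. A cluster of 400 cells led by Cd3d, Dscam and Cd160, in which all 10 NK markers were seen, stood at 55.3 CPM of Ptprk on 161 UMIs, against 11.5 CPM in NK-like cells and 0 UMIs in ILC1-like cells. A cluster of 132 cells with Il7r, Il23r and Cd4 among its leading genes stood at 57.8 CPM of Ptpn13 on 44 UMIs, against 2.65 CPM in NK-like cells, and had 0 UMIs of Ptprk. These clusters were singled out after their values were seen, and no test was made of them.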
